A study of Nasturtium officinale with 24 samples.

Results

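The leaf stalks (petioles) of watercress, Nasturtium officinale, were compared after 1 day completely under water and after 1 day in air. The comparison rests on the 3 submerged libraries and the 3 air libraries whose titles carry that tissue, treatment and day, 6 of the 24 libraries of the series. All 53919 of the 80741 transcript contigs that passed a filter on low counts were tested. A contig is a transcript sequence assembled from reads, and 1 gene may be represented by more than 1 contig, so the counts given here are of contigs and not of genes. The whole series crosses 2 tissues (stem and petiole), 2 treatments and 2 times, in a study of stem elongation under water.

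Plants were about 3 weeks old and had 5 to 6 leaves. They grew at 23 °C with 8 h of light at 100 µmol photons per m2 and s and 16 h of dark. Treatment began 2 h into the light period, either fully under water or in air in a similar tub, and 5 plants were pooled for each library. The controls thus shared growth conditions, kind of tub and duration with the submerged plants. No line or ecotype is named in the labels used here. Nothing ties an air and a submerged pool of the same number to a common day or batch in those labels.

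Watercress belongs to the cabbage family and roots in shallow running water. Gases diffuse slowly in water, so in submerged shoots oxygen and carbon dioxide become limiting and ethylene builds up. Flooded plants are known to respond in contrasting ways: by elongation that brings leaves back to the air, or by a quiescent state that saves carbohydrate. In Arabidopsis, a land plant of the same family, low oxygen induces enzymes of fermentation and sucrose breakdown, while transcripts of photosynthesis and growth decline. These are background facts only, because the contig identifiers carry no gene names in the files and no annotation was used, so neither these pathways nor the identity of the tissue could be checked by marker genes.

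The 6 libraries held 17617430 to 35317866 estimated counts, the lowest in air replicate 1 and the highest in submerged replicate 1. Between 50172 and 52337 of the tested contigs had a count in each library. The 100 contigs with the most counts took 22.9%, 23.4% and 24.1% of all counts in submerged replicates 1 to 3 and 27.1%, 28.3% and 25.3% in air replicates 1 to 3. The groups did not overlap in this measure, with the counts spread over more contigs under water. Submerged replicate 1 stood apart from both other submerged libraries by at least 2-fold on 570 of 17804 abundant contigs, and air replicate 3 from the other air libraries on 517. Counts that moved by over 1.5 times without 1 of these libraries are given with and without it.

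After 1 day under water 7266 contigs were higher and 5814 were lower than in air, together 24.3% of the contigs tested (edgeR quasi-likelihood test, Benjamini-Hochberg adjusted p under 0.05). The rises made up 13.5% and the falls 10.8% of the contigs tested. The median called rise was 2.42-fold, with quartiles of 1.72-fold and 4.57-fold, and the median called fall was 2.14-fold, with quartiles of 1.63-fold and 3.45-fold. The numbers of rises and falls differed between fits. With the spread taken from these 6 libraries alone, 3463 contigs were higher and 2220 lower (10.5% of those tested), and without submerged replicate 1, in the fit to the remaining 23 libraries, 7598 were higher and 7754 lower. Of all calls 55.6% were rises, against 65.8% when the deposited TPM (a share of transcripts adjusted for contig length and scaled to a common total) were tested on the log2(TPM + 1) scale.

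**Figure D1:**
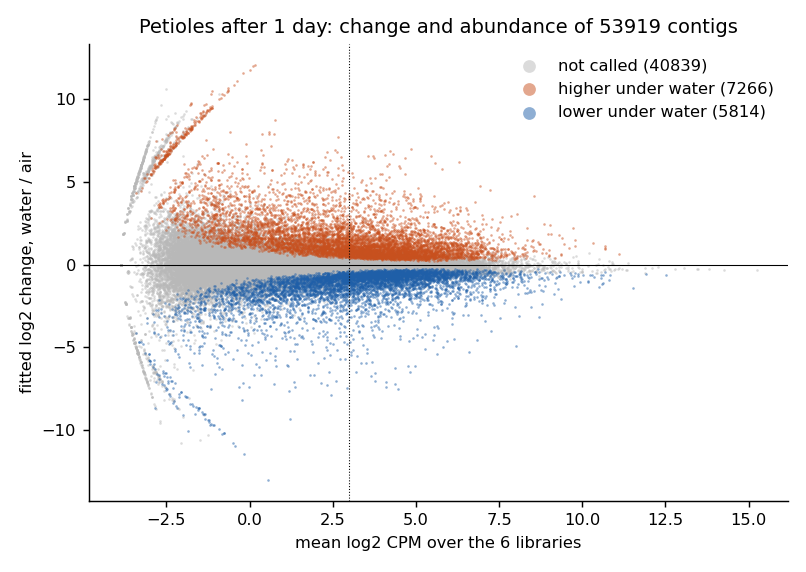
Each point is 1 of the 53919 contigs, with the mean log2 CPM over the 6 petiole libraries of 1 day on the x axis and the fitted log2 change, water over air, on the y axis. Orange points (7266) were called higher and blue points (5814) lower; the dotted line marks a mean log2 CPM of 3, and the curved streaks at the left are contigs with no or almost no counts in 1 group.

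The largest changes among called contigs averaging 3 or more in log2 CPM show the extremes library by library. CPM is the share of counts scaled to a common library size with TMM factors. GEMC01011130.1, a contig of 542 bases, stood at 2.52, 2.25 and 3.17 CPM in air replicates 1 to 3 and at 167, 354 and 496 CPM under water. All 3 submerged libraries were far above all air libraries, and submerged replicate 1 was the lowest of its group. The fitted log2 change was 7.00 ± 0.57 (SE, n = 3 per group, spread from the fit to 24 libraries; edgeR adjusted p = 3.2e-08). GEMC01025816.1, of 1549 bases, went from 1.11, 1.43 and 3.11 CPM in air to 107, 204 and 349 CPM under water, which is a fitted log2 difference of 6.87 ± 0.51 (SE; adjusted p by edgeR = 9.2e-09). As for the first contig, replicate 1 was lowest and replicate 3 highest under water, and replicate 3 was highest in air.

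GEMC01055134.1, of 1515 bases, stood at 257, 351 and 278 CPM in air and at 1.38, 1.5 and 2.02 CPM under water. The log2 change was -7.50 ± 0.29 (SE, n = 3 per group, spread from the fit to 24 libraries; edgeR adjusted p = 4.5e-12). GEMC01040125.1, of 1490 bases, went from 191, 242 and 233 CPM to 1.30, 1.07 and 1.48 CPM, which is a fitted log2 difference of -7.42 ± 0.25 (SE; adjusted p by edgeR = 4.5e-13). For both falling contigs the groups were far apart and the submerged libraries lay close together, and replicate 1 was not the highest of them. The lowest count behind any of these 24 values was 19. With the spread taken from the 6 libraries alone, the edgeR adjusted p of the 2 risers was 0.00087 and 0.0018. For the 2 fallers it was 0.00023 each. None of these contigs differed in its response between petiole and stem (edgeR adjusted p for the interaction 0.92 to 1), and none between the days (0.14 to 0.85), although a p above the threshold does not show equal responses.

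Small changes dominated the response by number. Of the called rises, 925 were below 1.5-fold, 1809 between 1.5-fold and 2-fold, and 2449 between 2-fold and 4-fold. A further 961 lay between 4-fold and 8-fold, 484 between 8-fold and 16-fold, 241 between 16-fold and 32-fold, and 397 above that. The falls were distributed in the same classes as 875, 1768, 2010, 640, 227, 121 and 173 contigs. Calls of at least 2-fold were 14.3% of the contigs tested. Below 1.5-fold, only 3 of the 925 rises and 3 of the 875 falls were also called with the 6 libraries alone. Of the 5683 calls of that fit, 4806 were at least 2-fold. Rises outnumbered falls in each class, by least below 2-fold and most above 8-fold, where 1122 contigs rose and 521 fell. Leaving out submerged replicate 1 moved the falls by over 1.5 times at each size: at least 2-fold from 3171 to 4800, at least 4-fold from 1161 to 1887, at least 8-fold from 521 to 791 and at least 32-fold from 173 to 266. The rises of these sizes went from 4532 to 4909, from 2083 to 2256, from 1122 to 1190 and from 397 to 403. The surplus of rises over falls was therefore smaller without that library.

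**Figure D2:**
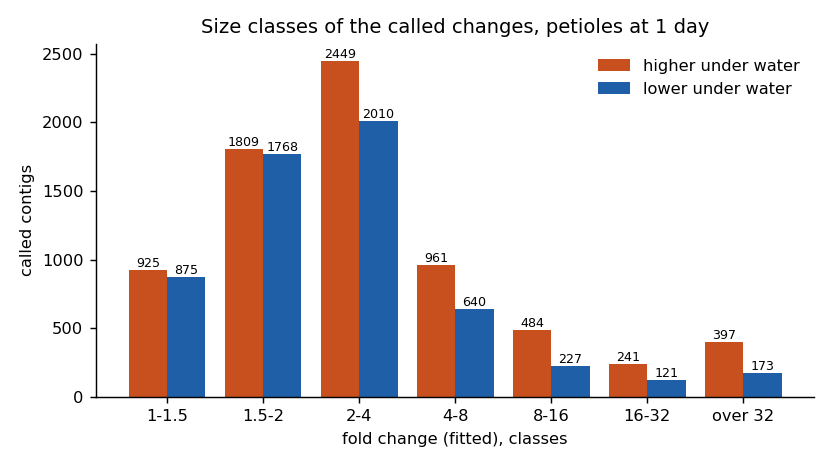
Bars give the number of called contigs (y axis) in each class of fitted fold change (x axis), rises in orange and falls in blue. The class from 2-fold to 4-fold was the fullest, with 2449 rises and 2010 falls, and rises exceeded falls 397 to 173 in the class above 32-fold.

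The largest fitted folds belonged mainly to contigs with almost no counts in 1 group. Of the 397 rises above 32-fold, 295 had at most 3 counts in every air library, and of the 173 falls 99 had at most 3 counts in every submerged library; such fitted folds depend on the prior count and are not bounds. Contigs with 0 counts in all 3 air libraries made up 231 of the called rises, and contigs with 0 counts in all 3 submerged libraries 83 of the called falls. Among the 17804 contigs averaging 3 or more in log2 CPM, 3677 rose and 3200 fell, with a median size of 1.84-fold and 1.75-fold. In that set the changes of at least 8-fold were 173 rises and 99 falls, and those of at least 32-fold were 26 rises and 25 falls. All 26 rises and all 25 falls of that size were also called in the same direction in stems at 1 day and in petioles at 2 days, where 19.1% and 33.5% of all contigs were called. Submerged replicate 1 was the least changed submerged library in all 26 rises, whereas among the 25 falls it was least changed in 9, replicate 2 in 4 and replicate 3 in 12.

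The share of contigs called was larger in the more abundant classes. In classes of mean log2 CPM the share called was 10.6% below 0, 22.5% from 0 to 3, 36.3% from 3 to 5, 44.1% from 5 to 7 and 44.3% from 7 to 9. In the 149 contigs at 9 and above it was 39.6%. The smallest absolute log2 change that was called was 0.81 in the lowest class and 0.22 in the class from 5 to 7. Of the contigs with a fitted change of at least 2-fold that were not called, 5335 lay in the lowest class and 12 in the class from 5 to 7. In the lowest class, 2-fold differences thus often did not pass the test. There the median SD on the log2 scale was 0.66 under water and 0.78 in air, against 0.21 and 0.24 in the class from 5 to 7, and 3 counts in a library corresponded to 0.0828 to 0.176 CPM. The parts of depth and of variation between pools were not tested.

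The size of the called changes ran the other way. The median absolute log2 change of called contigs was 2.98 in the lowest class, 1.42 in the next, and between 0.79 and 0.86 in the 4 classes from 3 upward. Over all tested contigs, called or not, the median absolute log2 change was 0.39 to 0.44 in those 4 classes. Changes of at least 8-fold were found in 1.61% of contigs in the class from 3 to 5, in 1.23% from 7 to 9 and in none of the 149 most abundant contigs.

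The balance of rises and falls shifted with abundance. Rises were 64.5% of the calls in the lowest class of log2 CPM, 54.0% from 3 to 5, 46.0% from 7 to 9, and 33.9% (20 rises, 39 falls) at 9 and above. From 7 to 9 the 149 rises and 175 falls turned to 170 and 155 with library totals alone and to 175 and 142 in the TPM test. At 9 and above falls led under these scalings too, and without submerged replicate 1 there were 24 rises and 28 falls. In TPM, a scale on which contigs of different length can be compared, 6 of the 78 contigs with a mean of at least 1000 TPM rose and 18 fell. From 100 to 1000 TPM 203 rose and 253 fell, and below 1 TPM 657 rose and 289 fell. In the class from 1000 TPM falls led under each scaling tried, with 6 rises and 18 falls under DESeq2 size factors, 8 and 18 under library totals alone, 8 and 11 in the TPM test, and 8 and 11 without submerged replicate 1. In the class from 100 to 1000 TPM the balance turned in the TPM test, to 233 rises and 205 falls.

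**Figure D3:**
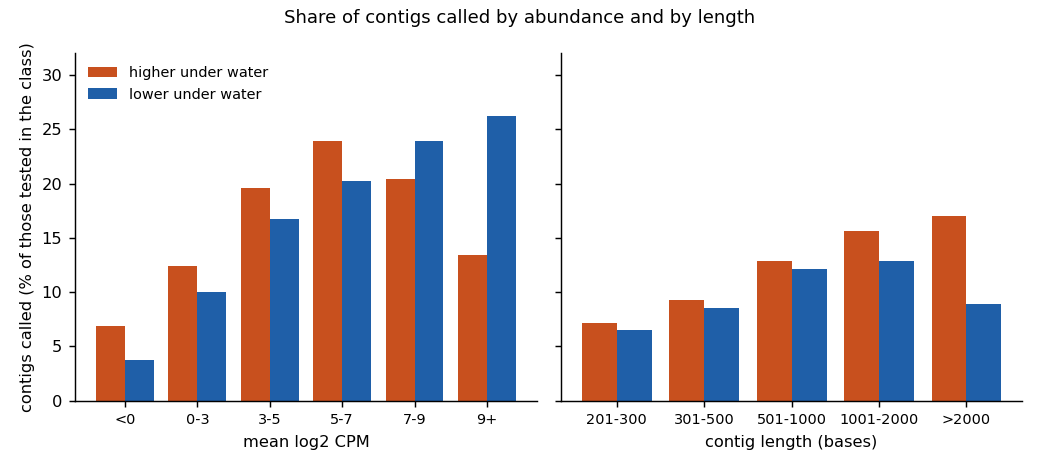
Bars give the percentage of tested contigs called higher (orange) and lower (blue) in classes of mean log2 CPM (left) and of contig length in bases (right). Falls exceeded rises in the classes from 7 to 9 (23.9% against 20.4%) and at 9 and above (26.2% against 13.4%), the former turning with library totals alone and in the TPM test, and rises exceeded falls most in contigs over 2000 bases (17.0% against 8.88%).

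Long contigs rose more often than short ones. Of the called contigs over 2000 bases 65.7% were rises, against 54.7% from 1000 to 2000 bases and between 51.7% and 52.3% in the 3 classes up to 1000 bases. Among contigs averaging 3 or more in log2 CPM, the median log2 change of all contigs, called or not, went from -0.27 in the class up to 300 bases through -0.14 at 500 to 1000 bases to 0.10 above 2000 bases. The same medians within each replicate number, water over air, were -0.26, -0.34 and -0.15 in the shortest class and 0.12, 0.10 and 0.08 in the longest, so every number showed that order. The range from the shortest to the longest class was smaller in stems at 1 day, from -0.01 to 0.06, and in petioles at 2 days it was from -0.22 to 0.07. The difference between these ranges was not tested. Fragment length, read from the bases that kallisto takes off the length of contigs over 3000 bases, moved in the same direction: 177, 174 and 185 bases under water against 174, 167 and 181 bases in air for replicates 1 to 3. Its part in the trend was not tested. Rises were a larger share of calls above 2000 bases than up to 500 bases under each scaling tried, 61.4% against 49.3% with DESeq2 size factors, 71.8% against 58.0% with library totals alone and 74.3% against 64.0% in the TPM test, and 57.6% against 44.8% without submerged replicate 1.

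In terms of transcript mass, the contigs that rose held 7.11%, 7.41% and 9.07% of all TPM of tested contigs in air replicates 1 to 3 and 17.6%, 22.0% and 23.9% under water. The contigs that fell held 21.8%, 24.2% and 25.8% in air and 12.7%, 12% and 11.4% under water. Both sets were chosen by these libraries, so their directions are given by the choice and the values only describe how much of the transcript pool was involved. Contigs without a call kept 68.2% ± 3.00 in air and 66.8% ± 2.59 under water (SD, n = 3). The 1122 rises of at least 8-fold reached only 2.97% ± 0.712 of TPM under water, from 0.160% ± 0.0578 in air. Contigs that fell were thus the more abundant set in air, and submerged replicate 1 held the least TPM in risen contigs and the most in fallen contigs of its group.

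The mass that fell was concentrated in fewer contigs than the mass that rose. The 10 contigs with the greatest loss made up 19.0% of the TPM lost by called contigs and the top 100 made up 42.3%, while the 10 and 100 with the greatest gain made up 8.53% and 31.8% of the TPM gained. The greatest loss was that of a contig of 246 bases, which stood at 4873, 7586 and 12354 TPM in air and at 2259, 3260 and 2428 TPM under water. Its air libraries differed more from each other than the submerged ones, and the groups did not overlap. A contig of 546 bases went from 1859, 2626 and 2432 TPM to 272, 292 and 278 TPM, with a log2 change of -3.16 ± 0.18 (SE). A contig of 845 bases went from 1049, 1676 and 1663 TPM to 50.5, 56.4 and 50.5 TPM, a log2 change of -4.91 ± 0.23 (SE). Its fall was steeper than in stems, where the log2 change was -3.21 (edgeR adjusted p for the interaction 0.011). These contigs were picked for their loss, so their falls are descriptions. TPM of short contigs, such as that of 246 bases, rest on a small effective length and are less certain than those of long contigs.

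The greatest gains were of moderate fold. A contig of 756 bases went from 1684, 1320 and 1166 TPM in air to 2796, 2997 and 2962 TPM under water, a log2 change of 0.97 ± 0.16 (SE). A contig of 1086 bases went from 265, 315 and 303 TPM to 1068, 1556 and 1765 TPM, a log2 change of 2.22 ± 0.23 (SE). Among the 10 greatest gains only the tenth, a contig of 651 bases, had a change above 8-fold: it stood at 25.3, 27.4 and 51.3 TPM in air and at 887, 1096 and 978 TPM under water (log2 change 4.75 ± 0.31, SE). The groups did not overlap in any of the 3, and submerged replicate 1 was the lowest of its group in each.

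The groups did not overlap for most called contigs, which the calls, made from the same libraries, largely fix. All 3 submerged libraries lay beyond all 3 air libraries for 6775 of the 7266 rises (93.2%) and for 5050 of the 5814 falls (86.9%), beside a share of 24.3% called and of 32.7% separated among all contigs tested. A further 5800 contigs separated without a call. Where a called rise overlapped, submerged replicate 1 was the least raised library in 365 of 491 contigs (74.3%), and where a called fall overlapped it was the least lowered in 539 of 764 (70.5%). Over all called contigs, overlapping or not, it was the least raised in 70.3% of rises and the least lowered in 52.5% of falls. Taken by replicate number, water exceeded air in all 3 numbers for 98.8% of the called rises, and air exceeded water in all 3 for 98.5% of the called falls, against 54.1% of all tested contigs with a common direction in the 3 numbers.

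The 3 submerged libraries were not equally far from each other. Over the 17804 more abundant contigs, the SD of the log2 difference was 0.39 between replicates 2 and 3, 0.48 between 1 and 2, and 0.68 between 1 and 3. Contigs at least 2-fold apart made up 1.81%, 3.86% and 9.62% of the set for the same pairs. The air libraries spread as much, with SDs of 0.45 between replicates 1 and 2, 0.64 between 1 and 3 and 0.53 between 2 and 3. The median SD per contig was 0.227 under water and 0.256 in air on the log2 scale, against 0.139 and 0.166 in stems of the same day and 0.176 and 0.203 in petioles at 2 days. By this median both petiole groups of 1 day were more variable than the groups they are set beside, a description without a test. The SDs between pairs overlapped, with 0.41, 0.53 and 0.57 for air petioles at 2 days. Scarce contigs spread more, and those below 0 in mean log2 CPM had a median SD of 0.66 under water and 0.78 in air.

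To see how far each submerged library had moved, contigs were taken that changed at least 4-fold in stems at 1 day, which share no library with the petioles. They also had to average 3 or more in log2 CPM over the air and submerged petiole libraries of 1 day. The list is therefore not independent of the petioles, as contigs scarce in air could pass that floor through the submerged libraries. That floor gave each of these libraries the same weight. The spread behind the stem calls came from the fit to all libraries. On the 360 that rose in stems, the median log2 change from the mean of the air petioles was 2.34 in submerged replicate 1, 2.85 in replicate 2 and 3.21 in replicate 3. Replicate 1 was the least raised of the 3 on 91.7% of these contigs and replicate 3 the most raised on 86.4%. On the 223 that fell in stems, the medians were -2.75, -2.71 and -2.99, and replicate 1 was the least lowered on 41.7%. Replicate 1 was thus the least changed library on most rises of this list, but not on most of its falls. On 440 contigs above the same floor that fell at least 4-fold in petioles at 2 days, replicate 1 was the least lowered on 68.4%.

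The air libraries carried part of the same order. On the contigs that rose in stems, air replicate 1 lay below the mean of the other air libraries by a median log2 difference of -0.35, air replicate 2 by -0.16, and air replicate 3 lay above by 0.52. Measured against the air library of the same number, the rises were 2.54, 2.97 and 2.89 for replicates 1 to 3, and replicate 1 was the least raised on 58.9% instead of 91.7%. The falls became -2.42, -3.02 and -3.01, and replicate 1 was the least lowered on 60.1%. The SD of the 3 changes taken within numbers had a median of 0.251, below the 0.374 that the same libraries give without regard to number, and it was the smaller of both for 72.0% of the contigs. A fit to the 6 libraries with the replicate number as a block called 4018 contigs higher and 3133 lower, 13.3% of those tested, against 3463 and 2220 without the block. 

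**Figure D4:**
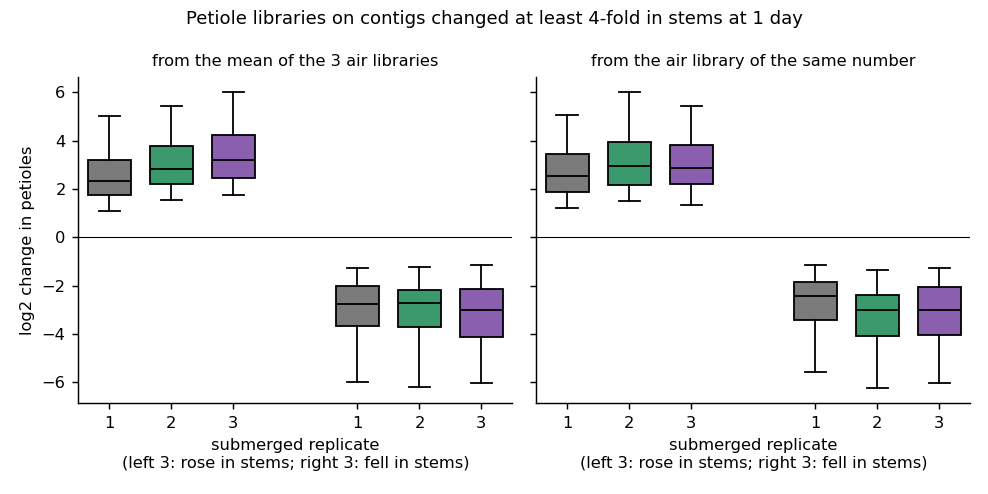
Boxes show the log2 change of each submerged petiole library (x axis, replicates 1 to 3) over contigs that rose (360) or fell (223) at least 4-fold in stems at 1 day; boxes are quartiles with the median line, whiskers the 5th and 95th percentiles. Against the mean of the air libraries (left) the medians of the rises run 2.34, 2.85 and 3.21, and against the air library of the same number (right) 2.54, 2.97 and 2.89.

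Submerged replicate 1 lay at least 2-fold from both other submerged libraries on 570 of the 17804 contigs (3.20%), against 42 for replicate 2 and 228 for replicate 3. On 472 of the 570 it was the higher library, and on 540 (94.7%) it deviated toward the level in air. For submerged replicates 2 and 3 that share was 59.5% and 41.2%. Air replicates 1 to 3 deviated toward the level under water on 44.2%, 60.0% and 85.1% of the contigs on which each lay apart. Deviation toward the other condition was therefore not particular to submerged replicate 1. On those 472 contigs, of median length 1380 bases, submerged replicates 1 to 3 stood at a median log2 difference of 0.22, -1.09 and -1.68 from the air mean. Their summed level was 18920, 7736 and 4794 CPM under water and 24283, 16973 and 13209 CPM in air. Replicate 1 was thus near the level of air, and both other submerged libraries were below it. Its air counterpart was also high on the same contigs, above the mean of the other air libraries for 94.3% of them, by a median log2 difference of 0.74.

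One day later all submerged petiole libraries were low on these contigs. At 2 days the median log2 differences from the air mean of the first day were -1.37, -1.91 and -1.52 under water and 0.24, -0.28 and -0.33 in air. Of the 472 contigs, 392 were called lower under water at 2 days and none higher, where 33.5% of all contigs were called in either direction. At 1 day 129 of them were called lower and 1 higher. The contigs were chosen by the submerged libraries of 1 day, among those averaging 3 or more in log2 CPM. That floor was taken over the air and submerged petiole libraries of 1 day, so these air libraries took part in the choice. The libraries of 2 days set neither rule, so the levels compared at 2 days come from other libraries. The spread behind the calls came from the fit to all libraries. In stems at 1 day 60 of the 472 were called lower. There 19.1% of all contigs were called in either direction. Among the 8268 contigs of 1000 to 2000 bases above the same floor, 2898 were called in stems. That length class holds the median length of the 472, but they were picked from contigs of all lengths. The count is therefore not read as a response of stems. Submerged replicate 3 was at least 2-fold below both others on 199 contigs, at a median log2 difference of -2.34 from the air mean, beside 0.23 in replicate 1 and -0.73 in replicate 2. Air replicate 3 was low too, below the other air libraries for 80.4% of them, by a median log2 difference of -0.78. Of the 199, 140 were called lower and 4 higher at 2 days. In either direction, 33.5% of all contigs and 4388 of the 8268 contigs of 1000 to 2000 bases were called then.

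**Figure D5:**
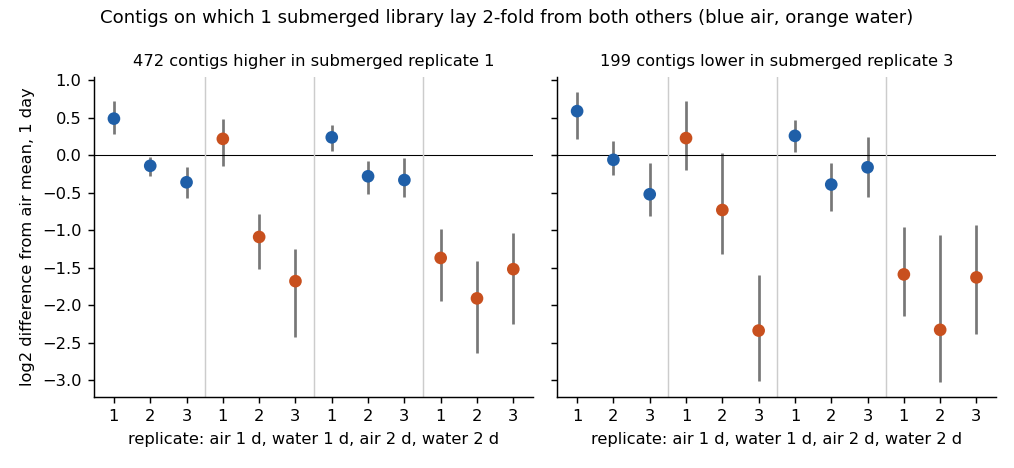
Points are medians and bars quartiles of the log2 difference from the mean of the air petioles of 1 day (y axis) in each petiole library (x axis; air in blue, water in orange). Left, 472 contigs on which submerged replicate 1 was at least 2-fold above both others at 1 day, with 0.22 against -1.09 and -1.68; right, 199 contigs on which submerged replicate 3 was at least 2-fold below both others.

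Contigs more abundant in one tissue in the air libraries of 2 days were followed next. They also had to average 3 or more in log2 CPM over the air and submerged petiole libraries of 1 day. Contigs scarce in air petioles could pass that floor through the submerged petioles, which favours rises in the stem lists. The counts of rises in those lists are therefore not read as a response. On 104 contigs at least 4-fold more abundant in petioles than in stems in air at 2 days, the summed level was 8823, 13424 and 12689 CPM in air replicates 1 to 3 and 5358, 7603 and 7927 CPM under water. Replicate 1 was the lowest in both groups. The same contigs summed to 1973 to 2153 CPM in stems in air and to 1543 to 2399 CPM in submerged stems of 1 day. Of the 104, 37 were called lower and 13 higher in submerged petioles, where 10.8% and 13.5% of all tested contigs were called in those directions. Of the 17804 contigs above the floor, 3200 were called lower and 3677 higher. With a cut of 2-fold the petiole list held 1133 contigs, of which 272 were called lower and 193 higher. The stem list held 15 contigs at 4-fold, of which 8 were called higher and 1 lower in submerged petioles. Their sums were 379, 260 and 309 CPM in air petioles and 1326, 1546 and 1835 CPM in submerged petioles. In stems of 1 day they summed to 1507 to 1937 CPM in air and to 2294 to 3318 CPM under water. At 2-fold the stem list held 133 contigs, with sums of 3298, 3113 and 3081 CPM in air petioles and 5669, 6244 and 6776 CPM in submerged petioles. In stems of 1 day the same contigs summed to 7623 to 8856 CPM in air and to 11425 to 14175 CPM under water. The sums of both stem lists were thus higher under water in stems as well. Of the 133 contigs, 55 were called higher and 26 lower in submerged petioles. The part of such contigs in the response as a whole was not tested. A different share of tissue or cell types and a change of transcript level per cell cannot be told apart in these bulk samples.

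Most changes of this day were found elsewhere too. Of the 7266 rises 3542 were also called higher both in stems at 1 day and in petioles at 2 days, 719 in stems only, 1769 in petioles at 2 days only and 1236 (17.0%) in neither. Of the 5814 falls 2787 were called in both, 650 in stems only, 1628 in petioles at 2 days only and 749 (12.9%) in neither. The contigs called in neither had a median absolute log2 change of 1.33 for rises and 0.94 for falls, against 1.49 and 1.32 for those called in both. Of these 1236 and 749 contigs, 16 and 3 had an interaction with tissue or time, so for most of them no difference in response was called by edgeR. The share also called in stems was 42.4% of falls below 1.5-fold, 83.5% of falls between 16-fold and 32-fold and 68.2% of those above. For rises the shares were 43.0%, 69.7% and 52.9%, where 19.1% of all contigs were called in stems in either direction.

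Differences from the other comparisons were tested by interaction terms, and their number varied widely between tools and fits. The response of petioles differed from that of stems at 1 day for 119 contigs, 0.221% of those tested (edgeR interaction term, adjusted p under 0.05). Of these 72 were raised and 33 lowered in petioles, and 14 were not called there. The change in petioles was the larger and of the same sign for 58. Between 1 and 2 days the response in petioles differed for 107 contigs, 0.198% of those tested, or 71 with the replicate number as a block. Of the 107, 33 were raised and 35 lowered at 1 day. DESeq2 called 670 contigs for the tissues and 1049 for the days, and edgeR with only the groups compared called 14 and 3. Both counts moved by over 1.5 times with single libraries. For the tissues they were 306, 55 and 62 without submerged petiole replicates 1, 2 and 3, 67 without air petiole replicate 2, 75, 63 and 54 without submerged stem replicates 1, 2 and 3, and 57, 63 and 64 without air stem replicates 1, 2 and 3. For the days they were 28 without submerged replicate 2 of 1 day, 168 and 7 without air replicates 1 and 2 of 1 day, 39 and 27 without submerged replicates 1 and 2 of 2 days, and 19 and 57 without air replicates 1 and 2 of 2 days.

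Contigs with consecutive identifiers often changed together. If a contig was called higher, the contig with the next number was called higher in 32.4% of cases, and if it was called lower the next was called lower in 28.5%, over 41799 pairs of tested neighbours. For contigs 100 numbers apart the shares were 14.7% and 11.2%, near the 13.5% and 10.8% of all tested contigs called in those directions. Called contigs formed 9919 runs of consecutive numbers with the same direction out of 13080 contigs. Neighbouring numbers can be parts or variants of 1 transcript, which the files do not record, so the number of separate transcripts behind the calls is not known.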

How the data were processed

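Messenger RNA of pooled petioles and stems was sequenced from both ends with 100 bp reads of fragments of 200 to 500 bp, in libraries that do not keep the strand, per the labels' protocols, so a transcript and an antisense partner cannot be told apart. The submitters' processing notes name kallisto, edgeR and limma; their versions and the source of the transcriptome are not named there. There is 1 table per library, of contigs up to 12603 bases long (median 697). The deposited estimated counts are not normalised and share reads between similar contigs. The deposited TPM adjust for effective length. Length and effective length stand beside them per the file headers.

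Estimated counts were rounded to whole numbers. Contigs were kept by filterByExpr (minimum count 10, minimum total 15). edgeR 4.0.16 (R 4.3.3) with TMM factors was fitted to the 24 libraries with a separate mean per group (8 groups), and the contrast was tested with glmQLFTest, with Benjamini-Hochberg adjustment over 53919 contigs. The biological coefficient of variation was 0.374. Log2 CPM used a prior count of 2. SE were derived from the F statistic. DESeq2 1.42.0 and limma 3.58.1 served as alternatives, and the procedure was tested on simulated data. No contig table has gene names, so the gene and marker lists drawn up were not tested. Named contigs are the 2 largest rises and 2 largest falls among called contigs averaging 3 or more in log2 CPM; others are given by length. Members, lists and tests were chosen with earlier results of these data known.

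Libraries with the same replicate number deviated together: across 17804 contigs, the deviations of air and submerged petiole libraries from their group means correlated at 0.544, 0.234 and 0.423 for numbers 1 to 3, and no label states why. As every pair exceeded 0.1, fits with the number as a block were set beside the main one, which has no block. Numbers of submerged petioles and submerged stems of 1 day did not deviate together (-0.012, 0.065 and 0.019), which the block over 24 libraries does not allow for. Other groups varied. Air petioles of 1 day deviated with air petioles of 2 days at 0.368, 0.229 and 0.301, and with air stems of 1 day at -0.091, 0.387 and 0.196. Submerged petioles of 1 and 2 days correlated at 0.254, 0.095 and -0.111. No pair of libraries agreed within counting noise, with a chi-square per contig of at least 13.4. The labels describe separate pools. SE and SD include the variation between pools, whereas the CPM that 3 counts stand for is a limit of counting only, since PCR copies were not marked.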

Additional observations from a re-analysis of the deposited data

Results flagged for a closer look

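A difference between tissues under the same treatment was found for 119 contigs, whose response to 1 day of submergence differed between petiole and stem in the interaction term of edgeR. Leaving out single libraries gave 54 to 306.

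A difference between the days was found for 107 contigs in petioles, again by the interaction term. Leaving out single libraries gave 7 to 168. The counts with other tools and fits stand in the part on processing. Groups of 3 libraries are too small for the formal outlier test, which was not run.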

How the results depend on the processing

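Rises outnumbered falls under every alternative run except without submerged replicate 1, where 7598 rose and 7754 fell, and the calls of the 4 named contigs held under all 19. Rises and falls numbered 3463 and 2220 (4806 calls of at least 2-fold) with only the 6 libraries compared, 3510 and 2543 with 5 of these, without submerged replicate 1, and 4018 and 3133 with the replicate block added to the 6; the last 2 fits, the changes against the air library of the same number and the 2-fold tissue list were chosen after seeing the data. The 12 petiole libraries gave 3741 falls, and a test against a change of 2-fold gave 1964 rises and 1151 falls. Leaving out single libraries gave 5530 to 7598 rises, 4253 to 7754 falls and 6219 to 9709 calls of at least 2-fold. The replicate block in the fit to 24 libraries gave 7261 rises, 5955 falls and 71 contigs whose response differed between days, and moved no other count by over 1.5 times. Contigs that differed between tissues numbered 670 with DESeq2, 203 with library totals alone, 64 with limma-voom and 14 with only the groups compared, and 54 to 306 with single libraries left out. Between days they numbered 1049 with DESeq2, 58 without a filter, 164 with a stricter one, 17 with limma-voom and 3 with only the groups compared, and 7 to 168 with single libraries left out. On contigs changed at least 2-fold in stems, submerged replicates 1 to 3 moved by a median log2 change of 1.25, 1.63 and 1.86 for rises and -1.4, -1.45 and -1.58 for falls. On falls of petioles at 2 days they moved by -1.66, -2.19 and -2.68. For the falls of stems, replicate 1 moved by -2.58 with library totals alone, -2.57 with a floor of log2 CPM of 1, -2.43 with one of 5 and -2.42 against its own number. Replicate 2 moved by -2.39 with a floor of 5 and -3.02 against its own number, and replicate 3 by -2.44 with a floor of 5. In CPM instead of TPM, risen contigs held 10.9% in air and 25.7% under water, and fallen contigs 13.3% under water. The SD between submerged replicates 2 and 3 was 0.57 with a floor of 1. The causes of these differences were not tested. Below 0 in mean log2 CPM, 5335 contigs with a fitted difference of at least 2-fold were not called; their counts were lowest and their spread between libraries widest.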
